A study of Mus musculus with 6 samples.

Results

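A set of 9 genes for proteins of the free epithelial surface was followed in the mouse handpad, the paddle-like end of the forelimb, at E14.5 of gestation. They were the membrane mucins Muc1, Muc4, Muc15, Muc16 and Muc20, the sialomucin Podxl, the adhesion molecule Epcam, the anchored glycoprotein Plet1 and the channel subunit Gabrp. They were taken by name from a list of surface proteins, out of 34989 genes that could be summed from the deposited transcript tables, and were put forward with results of the same libraries known. Their differences between genotypes are therefore given as a description of these libraries and not as independent support. The tissue came from 3 handpad samples labelled Grhl3KO (Grhl3-/-) and 3 labelled WT, all C57BL/6, each made into a stranded mRNA library. Grhl3, a DNA-binding protein of the grainyhead-like family, acts in the epidermis and its outer layer. The labels do not say which part of Grhl3 was deleted, nor if each replicate was an embryo of its own, so the tests gauge only how these samples vary, which may be technical. The series concerns epithelial migration and the periderm in digit separation.

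Periderm is the flat outermost cell layer of embryonic skin, which covers the epidermis until it is shed and keeps facing epithelia from sticking together. Membrane mucins are single-pass proteins whose long, sugar-coated outer part stands off the cell and can keep other cells away, while Epcam holds epithelial cells to each other. Handpad RNA comes from mesenchyme, cartilage and vessels as well as epithelium, and in such bulk samples fewer cells of a type and less RNA per cell cannot be told apart.

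The knockout libraries held 47642524 to 56037639 estimated counts and the wild-type libraries 38052692 to 48984542. Grhl3 measured 3.1, 2.86 and 2.95 CPM (counts scaled to library size) in the knockout libraries and 14.3, 45.7 and 18.5 CPM in the wild-type libraries, so the groups did not overlap. Grhl3 fell with a log2 fold change of -3.14 (adjusted p = 0.0221, edgeR), a call lost when any knockout library (adjusted p = 0.0759 to 0.162) or wild-type replicate 3 (0.0806, edgeR) was left out. Markers of surface epithelium were present in every library, with Krt5 at 1210 to 1620 CPM in knockout and 578 to 1070 CPM in wild-type libraries. Hoxd13, a homeobox gene of the distal limb, stood at 209 to 346 CPM in knockout and 260 to 334 CPM in wild-type libraries. Summed Y-linked expression was 3.37 to 4.43 CPM in the knockout libraries. It was 5.36 CPM in wild-type replicate 1 and 290 and 341 CPM in wild-type replicates 2 and 3, so presence of a Y chromosome moved with genotype in all but 1 library. A fit with a Y-linked term beside genotype thus compares the knockout libraries with wild-type replicate 1 alone. On the first principal component, wild-type replicate 1 lay at 24.1, among the knockout libraries at 12.6 to 26.2, and away from the other wild-type libraries at -37.2 and -40.8.

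Muc16 and Plet1 rose in the knockout, by a fitted 18.1-fold and 10.1-fold (edgeR) with wide intervals. The other members either differed less or varied between libraries of a genotype. Of the 9 genes, 7 had enough counts to be tested and 2 did not. Among the 7, 2 were higher and 0 lower at an adjusted p under 0.05 (edgeR quasi-likelihood test over 16938 genes, Benjamini-Hochberg). Over all genes the same rule called 0.431% in either direction, 0.348% higher and 0.0827% lower. In 4 of the 7, Muc16, Plet1, Epcam and Podxl, every knockout library lay above every wild-type library, a pattern that 6.77% of all genes showed, and in 0 of the 7 did every one lie below, as in 6.16% of all genes. The fitted log2 fold change was above 0 for 5 of the 7, against 48.8% of all genes, and 7.22% of all genes had an unadjusted p under 0.05. The members were chosen from this contrast, so nothing is read from these shares. Across all genes the median log2 fold change was -0.004. With wild-type replicate 1 left out, Muc16 (adjusted p = 0.0212) and Plet1 (adjusted p = 0.0113, edgeR) passed as well. Both calls were lost without knockout replicate 1 or 3, or without wild-type replicate 2 or 3 (adjusted p = 0.0544 to 0.0902, edgeR).

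**Figure D1:**
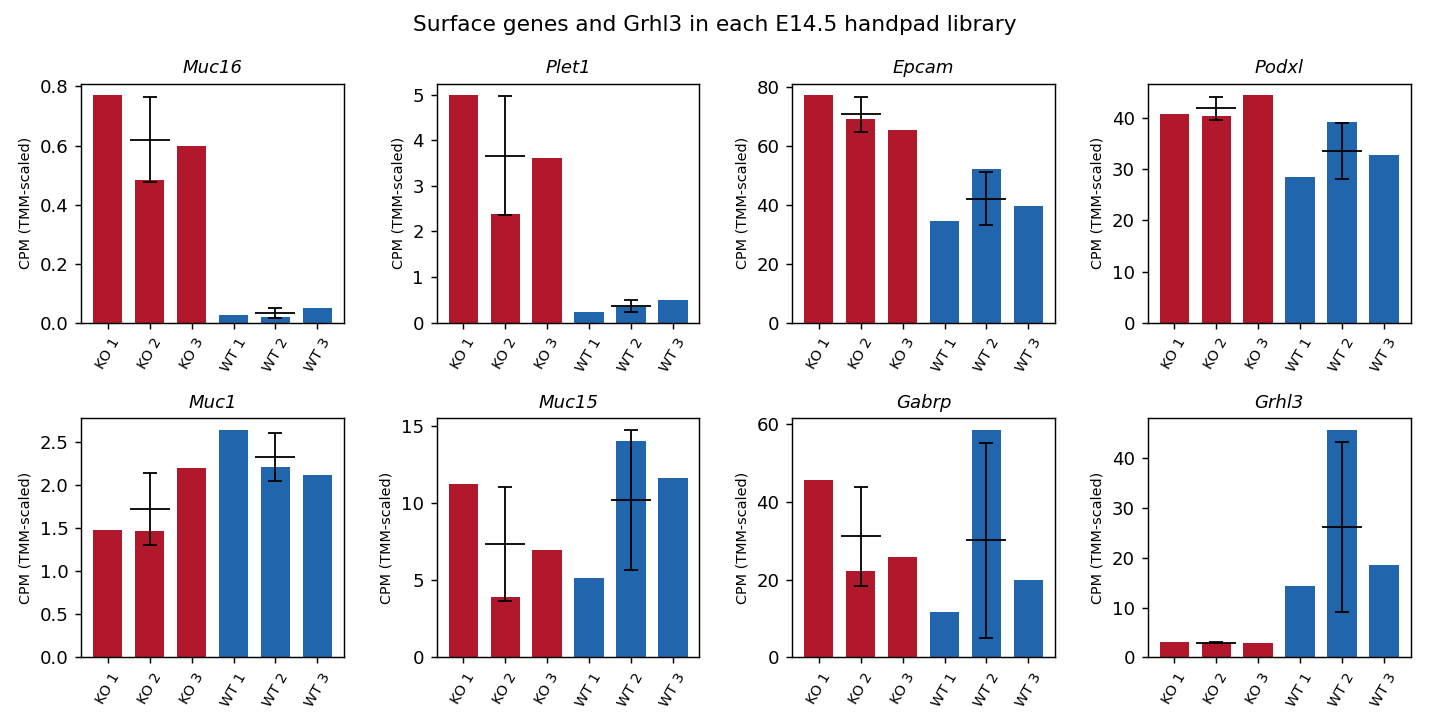
Bars give TMM-scaled CPM (vertical axis from 0) in each of the 3 Grhl3 KO (red) and 3 WT (blue) libraries, with a black line for the group mean and error bars for the SD. A last panel shows Grhl3. Muc16 and Plet1 stand near 0 in WT, Epcam and Podxl are higher in every knockout library, and Muc15 and Gabrp overlap, with Gabrp at 58.6 CPM in wild-type replicate 2.

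The bases just upstream of the start sites of the genes that rose, Muc16 and Plet1, are shown with those of Muc1, whose mean was lower, to set out what their promoters share. RefSeq windows (GRCm38.p6, 250 bases before to 50 after the start) matched 7 of the 9 genes. Capitals mark the letters of 4 searched motifs on either strand: AACCNGTT of grainyhead-like factors, TGANTCA of AP-1, GGGNGTGG of KLF factors and GGAATG of TEAD factors.
Muc16, chr9:18674604-18674853, minus strand: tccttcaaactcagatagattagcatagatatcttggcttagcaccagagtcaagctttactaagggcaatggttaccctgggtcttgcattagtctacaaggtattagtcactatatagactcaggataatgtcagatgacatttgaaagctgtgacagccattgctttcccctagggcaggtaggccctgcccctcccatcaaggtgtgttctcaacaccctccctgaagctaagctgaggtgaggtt
Plet1, chr9:50494275-50494524, plus strand: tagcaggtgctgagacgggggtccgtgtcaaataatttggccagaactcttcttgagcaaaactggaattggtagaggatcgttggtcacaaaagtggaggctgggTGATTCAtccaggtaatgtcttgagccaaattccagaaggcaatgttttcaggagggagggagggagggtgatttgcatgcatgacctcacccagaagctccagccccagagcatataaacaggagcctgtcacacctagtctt
Muc1, chr3:89228806-89229055, plus strand: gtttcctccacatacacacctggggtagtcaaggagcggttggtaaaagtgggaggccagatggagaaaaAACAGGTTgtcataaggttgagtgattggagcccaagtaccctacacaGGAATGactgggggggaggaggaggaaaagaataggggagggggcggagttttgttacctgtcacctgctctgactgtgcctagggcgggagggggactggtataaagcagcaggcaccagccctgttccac
The grainyhead letters were found in 1 of the 7 windows, that of Muc1, starting 180 bases upstream, and in 2.09% of all 32851 windows. The Muc16 window held none of the 4 motifs. The AP-1 letters stood in the Plet1 window alone, 144 bases upstream, and in 7.81% of all windows. KLF letters were in the windows of Muc20 and Epcam (17.6% of all windows) and TEAD letters in those of Muc1 and Muc4 (14.7%). These matches describe letters and not bound sites.

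Among the membrane mucins with enough counts to be tested, Muc16 showed the largest difference. Muc16 (ENSMUSG00000109564.1, chromosome 9, 18495455 to 18674530, minus strand, mm10) encodes a very large tethered mucin of wet surfaces, whose human form carries the tumour antigen CA125. It had 38, 23 and 33 estimated counts in the knockout libraries and 1, 1 and 2 in the wild-type libraries. On the CPM scale these were 0.771, 0.484 and 0.6 in the knockout, against 0.0264, 0.0201 and 0.0506 in wild-type. All knockout libraries were higher, and both groups were low in absolute terms. The summed counts, 94 in knockout and 4 in wild-type libraries, gave a ratio of 19.7 (95% interval 7.45 to 73.8, counting error only). Muc16 rose by 4.18 on the log2 scale in the edgeR fit (SE 0.49, 95% interval 3.05 to 5.31, adjusted p = 0.0146). The authors' deposited table lists 3 of the 9 genes by name, Podxl, Epcam and Plet1, and so does not list Muc16. Muc16 passed the low-count filter only through the knockout libraries. Leaving out knockout replicate 1 (adjusted p = 0.0902), knockout replicate 3 (0.0673), wild-type replicate 2 (0.0661) or wild-type replicate 3 (0.0806, all edgeR) ended this call. The log2 fold change stayed between 3.91 and 4.60 in these fits. With a Y-linked term, so against wild-type replicate 1 alone, it was 4.42.

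Muc1 and Muc15 had lower means in the knockout, with overlapping libraries. Muc1 (ENSMUSG00000042784.9, chromosome 3, 89229057 to 89233381, plus strand) is the widespread apical mucin of simple and glandular epithelia, which is cut into a pair of chains that stay bound. It measured 1.48, 1.47 and 2.2 CPM in the knockout libraries and 2.64, 2.21 and 2.12 CPM in the wild-type libraries. Knockout replicate 3 lay between the wild-type values. The log2 fold change was -0.43 (SE 0.24, 95% interval -0.98 to 0.12, adjusted p = 0.81, edgeR). Muc15 (ENSMUSG00000050808.13, chromosome 2, 110721340 to 110739527, plus strand) is a short membrane mucin first found in milk fat globules. Its values were 11.2, 3.9 and 6.97 CPM in the knockout and 5.17, 14 and 11.6 CPM in wild-type. Each genotype held both high and low libraries, with ranges of 2.89-fold in knockout and 2.7-fold in wild-type. The log2 fold change was -0.48 (SE 0.43, 95% interval -1.46 to 0.50, adjusted p = 0.943, edgeR). With Y-linked expression fitted too, so against wild-type replicate 1 alone, it was 0.51. It was -0.91 when knockout replicate 1 was left out and -0.18 when knockout replicate 2 or wild-type replicate 2 was. Muc15 lies inside Ano3 on the opposite strand and shares 61 of its 3569 exon bases with it.

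Muc4 and Muc20 were near the limit of detection in the handpad. Muc4, a large membrane mucin able to bind the receptor ErbB2, had 3, 1 and 2 counts in the knockout libraries and 0, 1 and 0 in the wild-type libraries. The ratio of the sums, 6 against 1, was 5.03 with a counting interval from 0.611 to 231. Muc20, a small mucin, had 0, 4 and 0 counts in the knockout and 1, 1 and 0 in wild-type, a ratio of 1.68 (0.24 to 18.5). No difference was detectable for either gene at this depth. With no low-count filter Muc4 had a log2 fold change of 2.02 (adjusted p = 0.893, edgeR). For Muc20 it was 0.69 (adjusted p = 0.972, edgeR). The genes are neighbours on chromosome 16 (Muc4 at 32735886 to 32782391, plus strand, Muc20 at 32777419 to 32797435, minus strand) and overlap over 4973 bases, 627 of them exonic in both. The strand setting used for quantification is not given in the sources used here, so reads in the overlap cannot be told apart.

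Podxl (ENSMUSG00000025608.9, chromosome 6, 31519488 to 31563981, minus strand) encodes podocalyxin, a negatively charged anti-adhesive sialomucin of kidney podocytes, endothelium and blood progenitors. It measured 40.7, 40.4 and 44.5 CPM in the knockout libraries and 28.4, 39.3 and 32.7 CPM in the wild-type libraries. Knockout values were all higher, but wild-type replicate 2 came close to the lowest. The log2 fold change of 0.32 (SE 0.13, 95% interval 0.03 to 0.62) did not pass the test (adjusted p = 0.605, edgeR). The authors' deposited table gives 0.32 with an FDR of 0.703 (likelihood ratio). Scaling on the pan-epithelial genes gave -0.12, and this scaling put the median of all genes at -0.49. The 18 blood endothelium genes, which include the defining markers Pecam1 and Cdh5, had a summed level of 637 to 715 CPM in knockout and 580 to 605 CPM in wild-type libraries, also without overlap. The number called was 0 with edgeR, DESeq2 and the likelihood ratio test. Cdh5 at 0.28 (adjusted p = 0.386) and Tek at 0.35 (adjusted p = 0.417, edgeR) were the 2 with an unadjusted p under 0.05, and the list's median log2 fold change was 0.14. Their part in the Podxl values was not tested.

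Epcam (ENSMUSG00000045394.9, chromosome 17, 87635979 to 87651129, plus strand) encodes the homotypic adhesion molecule of epithelial cells, which also stabilises claudins. It measured 77.4, 69.3 and 65.6 CPM in the knockout libraries, against 34.7, 52.2 and 39.7 CPM in the wild-type libraries. The groups did not overlap, and the means were 70.8 ± 6.06 in knockout and 42.2 ± 9.05 CPM in wild-type (SD, n = 3 each). Its log2 fold change of 0.75 (SE 0.15, 95% interval 0.40 to 1.09) missed the threshold with edgeR (adjusted p = 0.126). It passed with the likelihood ratio test (0.00229), with DESeq2 (0.00113) and once wild-type replicate 2 was left out (adjusted p = 0.0421, edgeR). With the Y-linked term, against wild-type replicate 1 alone, the log2 fold change was 1.03. The authors' deposited table gives Epcam a log2 fold change of 0.74 and an FDR of 0.00222. The summed level of the 24 pan-epithelial genes, none of them a member, was 4630, 3410 and 4520 CPM in the knockout libraries and 1860, 3350 and 2030 CPM in the wild-type libraries. Krt5 alone made up 1620, 1210 and 1600 CPM of this in knockout and 638, 1070 and 578 CPM in wild-type. Scaled on that list, the Epcam log2 fold change was 0.31 (adjusted p = 0.351, edgeR), against -0.49 for the median gene.

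Plet1 (ENSMUSG00000032068.14, chromosome 9, 50494525 to 50505482, plus strand) encodes a glycoprotein held to the membrane by a lipid anchor and known from trophoblast and from a cell zone of the hair follicle. It measured 4.99, 2.38 and 3.6 CPM in the knockout libraries, against 0.238, 0.341 and 0.506 CPM in the wild-type libraries. Even the lowest knockout library lay above the highest wild-type library, and each genotype varied by about 2-fold within itself (2.1-fold in knockout, 2.13-fold in wild-type). Plet1 rose by 3.33 on the log2 scale (edgeR, SE 0.38, adjusted p = 0.013), rank 21 by p among all genes. It no longer passed when knockout replicate 1 (adjusted p = 0.0633), knockout replicate 3 (0.0544), wild-type replicate 2 (0.0583) or wild-type replicate 3 (0.0743, all edgeR) was left out, with log2 fold changes of 3.04 to 3.63. With the Y-linked term, against wild-type replicate 1 alone, the log2 fold change was 3.93. The authors' deposited table gives 3.33 with an FDR of 9.14e-12. An antisense gene, Plet1os, spans the whole of Plet1 and shares 261 of its 1947 exon bases. It was not used here, and its reads cannot be told apart from those of Plet1 in the shared bases.

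Gabrp (ENSMUSG00000020159.8, chromosome 11, 33550781 to 33578959, minus strand) encodes the pi subunit of GABA-A receptors, which is found mainly in epithelia outside the brain. It measured 45.7, 22.2 and 25.9 CPM in the knockout libraries and 11.7, 58.6 and 19.8 CPM in the wild-type libraries. Wild-type replicate 2 was the highest of all 6 libraries and wild-type replicate 1 the lowest. The log2 fold change was 0.05 (SE 0.53, 95% interval -1.16 to 1.27, adjusted p = 1, edgeR), so a change of 2-fold either way lies inside the interval. Leaving out knockout replicate 1 or wild-type replicate 1 gave -0.33 and leaving out wild-type replicate 2 gave 0.99, none of which passed. The Y-linked term, against wild-type replicate 1 alone, gave 1.41. Pan-epithelial scaling gave -0.25, against -0.49 for the median gene. Grhl3 and the pan-epithelial genes were also highest in wild-type replicate 2 among the wild-type libraries, at 45.7 CPM and a mean log2 CPM of 5.58. Their part in the Gabrp values was not tested.

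**Figure D2:**
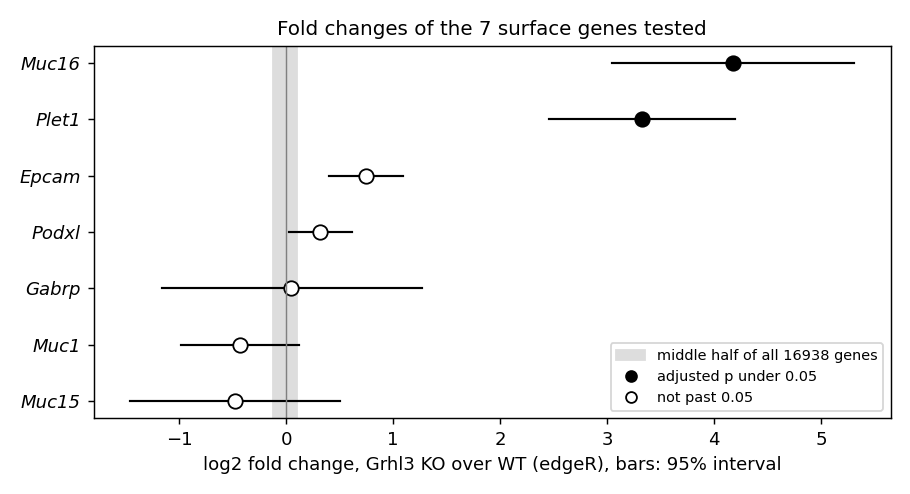
Points give the log2 fold change (Grhl3 KO over WT, horizontal axis) of the 7 surface genes tested, with 95% intervals from the edgeR fit, and the grey band the interquartile range of all genes. Muc16 at 4.18 and Plet1 at 3.33 are filled (adjusted p under 0.05), while the other 5, Epcam at 0.75 down to Muc15 at -0.48, are open.

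Levels of different genes were compared per length, as TPM summed over the transcripts of a gene. In the knockout Epcam was the most abundant at 43.7 ± 5.19 TPM, and in wild-type it stood at 27.9 ± 8.89 TPM (SD, n = 3 each). Gabrp averaged 21.3 ± 14.8 TPM in knockout and 19.5 ± 18.4 TPM in wild-type, and Podxl stood at 8.41 ± 0.215 TPM in knockout and 7.19 ± 1.95 TPM in wild-type. Summed Gabrp lay above Podxl in every library. Against Epcam it was higher in wild-type replicate 2 and lower in wild-type replicates 1 and 3. The 467-base Gabrp-202 adds much to the Gabrp sum, and Gabrp-201 alone measured 16, 7.71 and 8.58 TPM in the knockout libraries and 3.64, 23.1 and 7.72 TPM in the wild-type libraries. With Gabrp-201 alone the order against Podxl differed between libraries, so Gabrp and Podxl are not ordered here. Plet1, Muc15 and Muc1 stood at 2.89 ± 1.09, 2.65 ± 1.11 and 1.79 ± 0.829 TPM in the knockout, within each other's spread on the summed scale. The coding Muc1-201 alone measured 0.836, 0.767 and 1.1 TPM in the knockout libraries, below every Plet1 value there, since noncoding transcripts of 476 and 500 bases make up the rest of the Muc1 sum. In wild-type the order of these was Muc15 at 3.9 ± 2.1, Muc1 at 2.94 ± 0.173 and Plet1 at 0.309 ± 0.143 TPM, so Plet1 alone lay below Muc15 and Muc1. Muc16 had 0.14 ± 0.00483 TPM in knockout and 0.00343 ± 0.000405 TPM in wild-type, and Muc4 and Muc20 averaged at most 0.00931 and 0.015 TPM in either group. The Muc16 wild-type values rest on 1, 1 and 2 counts, and short transcripts add much to its knockout sum. Its small SDs are therefore no guide to precision.

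For most members a single transcript held nearly all counts. Epcam, Podxl and Plet1 had all of them on their coding transcript 201, and Gabrp-201 held 98.5% ± 0.835 in knockout and 98.8% ± 0.236 in wild-type (SD, n = 3). Muc15-202 held 89.4% ± 9.72 of Muc15 counts in knockout and 82.6% ± 15.2 in wild-type, a difference within the spread (p = 0.60, exact two-sided permutation test, for which 0.10 is the smallest p that 3 against 3 allows). Muc1-201, the coding form, held 96.5% ± 3.02 in knockout and 95% ± 0.259 in wild-type libraries (p = 0.80, exact permutation test). In Muc16 the 7700-base Muc16-203 held 61.9% ± 7.55 and the 25437-base Muc16-204 29.3% ± 3.9 in the knockout, while wild-type counts were too few to divide. Short transcripts carry much of a summed TPM: for Muc16 the log2 ratio of mean TPM was 5.35 from the sum and 4.20 from Muc16-203 alone. For Gabrp the same pair was 0.13 and -0.09, around 0. Tested by transcript over 47052 transcripts, no member passed with edgeR. Plet1-201 had a log2 fold change of 3.37 (adjusted p = 0.313) and Muc16-203 of 3.92 (adjusted p = 0.332, edgeR), and the fit called 0.00213% of all transcripts.

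Set beside the epithelium of the same library, the members fell into separate patterns. Relative to the mean log2 CPM of the 24 pan-epithelial genes, Muc16 lay at -6.23 ± 0.19 in knockout and -8.90 ± 0.58 in wild-type, and Plet1 at -3.79 ± 0.39 in knockout and -6.51 ± 0.53 in wild-type (SD, n = 3 each). Both remained higher in every knockout library. Log2 CPM here carries a small added count, which narrows differences at low counts. For Muc16 the edgeR fit scaled on this list gave a log2 fold change of 3.77. Epcam lay at 0.53 ± 0.16 in knockout and 0.23 ± 0.09 in wild-type, still without overlap but closer. Podxl, at -0.22 ± 0.13 in knockout and -0.10 ± 0.16 in wild-type, overlapped on this scale. Muc1 lay at -4.82 ± 0.30 in knockout and -3.92 ± 0.51 in wild-type, with every knockout library below every wild-type library, while its CPM overlapped. Most pan-epithelial genes, 20 of 24, had a log2 fold change above 0 themselves. Scaling on them put the median gene at -0.49 and Muc1 at -0.94, so much of this shift is shared by all genes. Against the mean of 18 periderm genes, Muc1 was at -4.73 ± 0.39 in knockout and -3.13 ± 0.32 in wild-type. Muc15 was at -2.76 ± 0.48 in knockout and -1.12 ± 0.63 in wild-type, both genes without overlap. Podxl, whose CPM was higher in every knockout library, also lay lower without overlap, at -0.13 ± 0.27 in knockout and 0.69 ± 0.10 in wild-type. Epcam and Gabrp had lower knockout means with overlap, while Muc16 and Plet1 stayed higher in every knockout library. The periderm list was itself higher in the knockout (median log2 fold change 0.69). Its mean log2 CPM was 5.22 to 5.77 in knockout and 4.24 to 4.62 in wild-type libraries. Much of the downward shift of these genes therefore lies in the list.

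**Figure D3:**
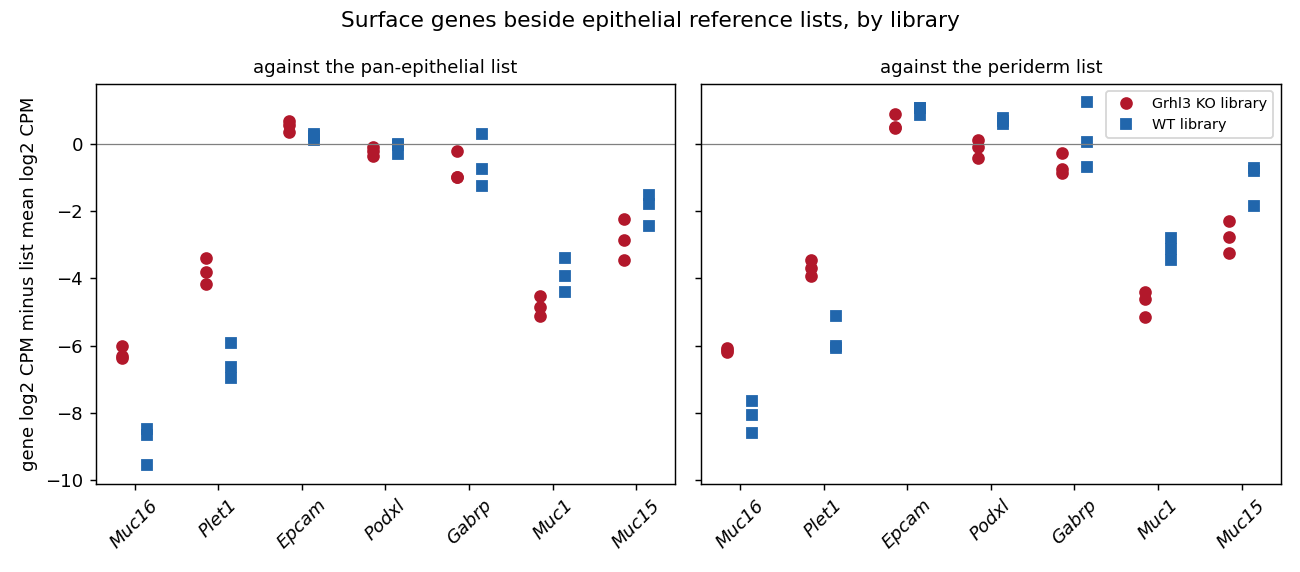
Each symbol is a library (red circles Grhl3 KO, blue squares WT), and the vertical axis gives a gene's log2 CPM minus the mean log2 CPM of the pan-epithelial (left) or periderm (right) list. Muc16 and Plet1 sit higher in knockout in both panels, and Muc1 sits lower in both, though its CPM overlapped between genotypes. Muc15 and Podxl also sit lower in the periderm panel. A higher list mean in a library moves every gene down on these axes. Log2 CPM carries a small added count, which narrows the gap shown for Muc16. The periderm mean log2 CPM was 5.22 to 5.77 in knockout and 4.24 to 4.62 in wild-type libraries. The pan-epithelial mean was 5.44 to 5.71 in knockout and 4.82 to 5.58 in wild-type libraries.

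The gene most like each member across the 6 libraries was found by the root-mean-square distance of centred log2 CPM over 12872 candidates. Krt8, a keratin of simple epithelia and periderm, was nearest to Muc16 (distance 0.14) and also to Plet1 (0.30). Krt8 measured 82, 48.3 and 57.8 CPM in the knockout libraries and 8, 6.96 and 8.7 CPM in the wild-type libraries. Muc15 was nearest to Abca12, a lipid transporter of the upper epidermis, at 0.10, and Epcam to Pkp2, a desmosomal plaque protein, at 0.08. Abca12 had 18.2, 6.87 and 12.9 CPM in the knockout and 9.4, 22.8 and 17.7 CPM in wild-type libraries, the same order of libraries as Muc15 within each genotype. Podxl was nearest to Ece1, an endothelin-converting enzyme, at 0.05, Muc1 to Magel2 at 0.08 and Gabrp to Arhgap40 at 0.30. With 6 libraries and so many candidates, these distances only describe shared order. The count added to log2 CPM narrows the range of Muc16, whose fitted log2 fold change was 4.18, against 2.99 for Krt8 (edgeR).

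Among other genes of the same families and pathways, those around Epcam held the calls. Of 17 Epcam partners tested, 2 rose and 0 fell (edgeR): the claudins Cldn6, at 26.2 ± 2.64 in knockout and 8.62 ± 2.3 CPM in wild-type, and Cldn7, which binds Epcam directly, at 7.06 ± 0.842 in knockout and 2.93 ± 0.476 CPM in wild-type (SD, n = 3 each). The list median was 0.24, or -0.20 with pan-epithelial scaling, where the median gene was at -0.49, and 0.46 once wild-type replicate 2 was left out. Next by p were Spint1, a membrane-bound protease inhibitor, at 1.05 on the log2 scale, and St14, the membrane protease matriptase that it blocks, at 1.13 (edgeR, adjusted p = 0.059 each). Cldn6 is also on the periderm list and Cldn7 on the pan-epithelial list. Leaving out any of wild-type replicate 3 and knockout replicates 1 and 3 gave 0 partner calls, leaving out knockout replicate 2 gave 1, and leaving out wild-type replicate 1 or 2 gave 4. DESeq2 and the likelihood ratio test each called 6, no filter 4 and pan-epithelial scaling or the replicate block 1. The apical anchor list held genes that tie membrane glycoproteins to the cytoskeleton or sort them to the free surface, along with polarity and tight junction genes. Of its 18 genes tested, 0 were called with edgeR (1 without wild-type replicate 1 or with no filter). Before adjustment 4 had a p under 0.05 on the higher side and 1 on the lower side, and DESeq2 and the likelihood ratio test each called 3 higher. The lowest p values were those of Slc9a3r1, a scaffold that links podocalyxin to ezrin, at 28.5 ± 1.8 in knockout and 17.6 ± 2.06 CPM in wild-type (SD, n = 3 each, adjusted p = 0.0702, edgeR), and Crb3, an apical polarity protein (log2 fold change 1.01, adjusted p = 0.105, edgeR).

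The remaining mucins and the enzymes that build their sugars were not called. Of 10 other mucins and mucin-like proteins tested, 0 passed with edgeR, DESeq2 or the likelihood ratio test, and the median log2 fold change was -0.04. At an unadjusted p under 0.05, 1 was higher. That gene was Parm1, a mucin-like membrane protein, at 67.2 ± 7.91 in knockout and 55 ± 1.04 CPM in wild-type (SD, n = 3 each, adjusted p = 0.497, edgeR), and next came Muc2, the gel-forming mucin of the gut, at a log2 fold change of -0.73 (adjusted p = 0.711, edgeR). Of 33 O-glycan enzymes, 0 were called with edgeR, 1 with DESeq2 and 0 with the likelihood ratio test, and 1 was higher at an unadjusted p under 0.05. This was Galnt6, which adds the first sugar of mucin-type chains, at 4.35 ± 1.22 in knockout and 2.3 ± 0.243 CPM in wild-type (SD, n = 3 each, adjusted p = 0.297, edgeR), while St6galnac6, a sialyltransferase, had a log2 fold change of -0.23 (adjusted p = 0.768, edgeR). Of 14 surface proteins, most of them GPI-anchored like Plet1, 0 were called with edgeR and 2 with DESeq2 or the likelihood ratio test. At an unadjusted p under 0.05, 4 of these were higher. Leaving out knockout replicate 2 gave 1 call. The lowest p values were those of Lypd6b, at 0.56 on the log2 scale (adjusted p = 0.093, edgeR), and Cpm, a membrane carboxypeptidase, at 0.52 (adjusted p = 0.179, edgeR). Of 12 other GABA-A subunits, 0 passed with edgeR or the likelihood ratio test, 1 was lower with DESeq2, and 2 were lower at an unadjusted p under 0.05. These were Gabre, at 6.88 ± 1.19 in knockout and 10.7 ± 0.853 CPM in wild-type (SD, n = 3 each, adjusted p = 0.248, edgeR), and Gabrg3 (log2 fold change -0.71, adjusted p = 0.493, edgeR).

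Markers of the layers and cell types that could carry these genes moved as follows. Of 18 periderm genes, 7 rose and 0 fell (edgeR). These were Cldn6 and the keratins Krt8, Krt17, Krt6a, Krt18, Krt13 and Krt7. Krt17, which marks periderm and stressed epidermis, averaged 352 ± 102 CPM in knockout and 35.4 ± 11.8 CPM in wild-type, and Krt6a 267 ± 122 CPM in knockout and 17.8 ± 2.49 CPM in wild-type (SD, n = 3 each). The number that passed was 2 when wild-type replicate 3 was left out, 3 when knockout replicate 1 was and 4 when knockout replicate 3 was. Krt4, a keratin of moist stratified linings, lay the other way, at 22.4, 13.1 and 14.2 CPM in the knockout libraries and 37.6, 83.3 and 46.5 CPM in the wild-type libraries. Its groups did not overlap, and its log2 fold change of -1.75 missed the threshold (adjusted p = 0.0785, edgeR). From the list 1 gene was called lower with DESeq2, the likelihood ratio test, no filter or pan-epithelial scaling, or when wild-type replicate 1 was left out. The list median was 0.69, or 0.23 with pan-epithelial scaling, where the median gene was at -0.49. Of the 18 genes, 13 had a log2 fold change above 0. Besides Krt4, those that did not were Prss22 (-0.47), Klf4 (-0.06), Tgfb3 (-0.06) and Arhgap29 (-0.00), each with overlapping groups. Of 24 pan-epithelial genes, 1 rose and 0 fell (edgeR), with 10 higher and 1 lower at an unadjusted p under 0.05 and a median of 0.45. That median was 0.25 with wild-type replicate 1 left out and 0.72 with wild-type replicate 2 left out. The gene that rose was Cldn7. Krt14, a keratin of basal cells, came next at 780 ± 159 in knockout and 325 ± 87.1 CPM in wild-type (SD, n = 3 each, adjusted p = 0.0705, edgeR). Of the surface epithelium markers, Cdh1, Krt5 and Krt14 were higher in every knockout library without being called, while Trp63 and Esrp1 overlapped between genotypes. Cdh1 was at 146 ± 16.1 in knockout and 84.5 ± 33.4 CPM in wild-type (adjusted p = 0.402, edgeR). Trp63 was at 86.4 ± 6.29 in knockout and 76.2 ± 14.9 CPM in wild-type, and Esrp1 at 56.7 ± 3.63 in knockout and 56.7 ± 17.7 CPM in wild-type. Leaving out wild-type replicate 3 or any 1 knockout library gave 0 calls, leaving out wild-type replicate 2 gave 3, and DESeq2 gave 6 higher. Of 13 macrophage genes 0 were called by edgeR, DESeq2 or the likelihood ratio test, and 0 passed at an unadjusted p under 0.05 (median 0.12), Lyz2 and Aif1 having the lowest p values. Of 15 internal epithelium genes, such as markers of lung, gut and kidney, 4 had enough counts to be tested and 0 were called with any of these tools, with Foxa3 and Foxa2 lower at an unadjusted p under 0.05. The list's summed level was 4.4 to 6.23 CPM in knockout and 5.79 to 7.29 CPM in wild-type libraries, and Cdx2 was at 0 in 5 of the 6. Of 11 Merkel, nerve and pigment cell genes, 0 were called with edgeR, 1 with DESeq2 and 2 with the likelihood ratio test, and Pmel and Krt20 were higher at an unadjusted p under 0.05.

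**Figure D4:**
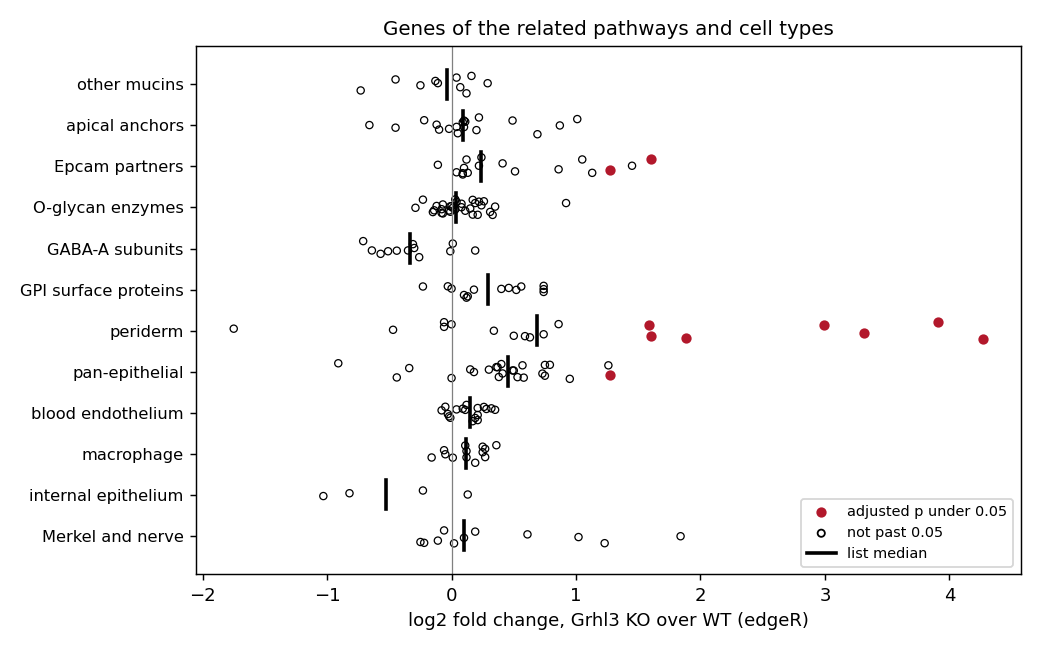
Each point is a gene of a related list (rows), placed by its log2 fold change, Grhl3 KO over WT, with filled red points at an adjusted p under 0.05 (edgeR) and a bar at the list median. Filled points stand in the periderm, Epcam partner and pan-epithelial rows, and the mucin and O-glycan rows centre near 0. The endothelium row has its median at 0.14.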

How the data were processed

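Polyadenylated RNA of 6 handpad samples was quantified per transcript by the authors. FastQC, kallisto and the mm10 build are named in the submitters' processing notes. Which kallisto version, transcript set and strand setting they ran was not given in the sources used here. Each deposited table gives, per the file headers, estimated counts, not normalized, and TPM for 111462 transcripts. The authors' deposited comparison table lists 941 genes with log2 fold change, log2 CPM, a likelihood ratio score, p-value and FDR, and is credited where used.

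Transcripts were matched to GENCODE M21 (same build) by unversioned identifier; 110203 matched. The 1259 others held 0.504% to 0.566% of counts and were left out. Estimated counts were summed per gene and rounded. Genotypes were compared with edgeR 4.0.16 (R 4.3.3), the quasi-likelihood test with genotype as the only term, TMM scaling and filterByExpr (minimum count 10, total 15), leaving 16938 genes. SE is the log2 fold change divided by the square root of F. Log2 CPM carries the default added count of edgeR. CPM is TMM-scaled; summed Y-linked CPM uses library totals. On simulated counts for these 16938 genes, 63.2% of 2-fold and 89.2% of 4-fold changes were recovered, with 7.03% and 6.63% of calls false. Intervals cover counting error only where so stated.

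Members and lists were chosen with earlier results of these data known. Genes named are the 9 members, Grhl3, up to 4 called genes and the 2 lowest p values of each list where described, the nearest gene to each member, and defining markers. Cldn6, Krt13 and Krt4 of the periderm list are defining markers, but were named after their values were seen. Krt7, Prss22, Klf4, Tgfb3 and Arhgap29 of that list were named beyond this rule, after their values were seen. Hoxd13 was also outside this rule. Alternatives were other scalings and filters, a replicate block, a Y-linked term, DESeq2 1.42.0, the likelihood ratio test, leaving out each library, and a test per transcript. The TPM of the leading transcript was added after the data were seen. Protein sequence features were planned and were not analysed here.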

Additional observations from a re-analysis of the deposited data

How the results depend on the processing

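The number of members called higher was 2, and 2 or 3 under other scalings, no filter, the replicate block, DESeq2 and the likelihood ratio test. It was 1 with a filter of at least 1 CPM in 3 libraries, which removes Muc16, and 0 to 2 with a library left out (0 without knockout replicate 1, knockout replicate 3 or wild-type replicate 3, 1, Epcam, without wild-type replicate 2). The number called lower was 0 throughout. No count of calls is given for the Y-linked term, which compares the knockout libraries with wild-type replicate 1 alone. Over all genes, 59 were higher and 14 lower with edgeR. These became 90 and 28 with no filter, 212 and 87 with DESeq2 and 185 and 75 with the likelihood ratio test. Pan-epithelial scaling gave 88 higher and 217 lower, with the median of all genes at -0.49, a shift by the construction of that scaling. The filter at 1 CPM left 7 lower, and the Y-linked term gave 31 lower. With a library left out, 9 to 136 were higher and 1 to 70 lower; the cause was not tested. Replicate numbers did not pair the samples: same-numbered libraries deviated from their group means with correlations of -0.24, -0.09 and -0.16. The replicate block gave 42 higher and 5 lower, and both member calls held. No sign of a called member changed under these alternatives. For Muc4 and Muc20 the counts set the limit, and for Gabrp and Muc15 the spread between libraries of a genotype.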
